A study of Mus musculus with 12 samples.

Results

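The miRNAs described here come from the Meg3, Rtl1 antisense and Rian segments of the imprinted Dlk1-Dio3 locus on distal mouse chromosome 12. They were chosen by name, as every row of the count table for miR-770, miR-673, miR-493, miR-337, miR-540, miR-665, miR-3070, miR-3071, miR-431, miR-433, miR-127, miR-434, miR-432, miR-136, miR-341, miR-1188, miR-882 or miR-370, whatever the arm or copy. This gave 35 of the 1978 rows, from 19 hairpins. All 35 matched a mature miRNA of RefSeq on build GRCm38.p6, and all lay on chromosome 12, with hairpins between positions 109563692 and 109682273. In the 8 distinct libraries 15 rows held 10 or more counts, 10 rows held 1 to 9 counts and 10 rows held none. The 15 rows carried 1576 of the 1614 counts of the whole set.

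Small RNA libraries were made from embryonic stem cells (ESC) of E14, an established mouse line, and from mouse trophoblast stem cells (TSC), which give rise to placental cell types and whose line the labels do not name. Each cell type was profiled untreated (labelled WT, called control here) and in a paused state brought on by mTOR inhibition, an in vitro counterpart of embryonic diapause. The labels give no inhibitor name, dose, duration, culture condition or feeder status. Each of the 4 groups had 3 deposited samples, but replicate 3 was identical to replicate 2 in every row of every group and was not counted, which left n = 2 per group. Nothing says that the replicates came from separate cultures, so p-values measure only the spread between these libraries, which may be technical.

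The Dlk1-Dio3 domain is expressed according to parent of origin. The protein-coding genes Dlk1, Rtl1 and Dio3 are transcribed from the paternal chromosome, and the noncoding genes Meg3, Rian and Mirg, with the miRNAs and snoRNAs embedded in them, from the maternal one. Rtl1 is a retrotransposon-derived gene needed in the placenta, and the miRNAs made from its opposite strand are perfectly complementary to its mRNA and known to direct its cleavage. Activity of the maternal noncoding RNAs is known as a mark of mouse pluripotent stem cells with full developmental potential.

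The sequences below are those of the 15 rows with 10 or more counts, in order along the locus, since they carry the values that follow. Each is written 5′ to 3′ with the seed, bases 2 to 8, in capitals, as given by RefSeq on GRCm38.p6. The first 6 come from the Meg3 side, the next 7 from the strand opposite Rtl1, and the last 2 from Rian.
miR-673-5p: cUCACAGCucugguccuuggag
miR-337-5p: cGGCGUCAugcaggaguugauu
miR-337-3p: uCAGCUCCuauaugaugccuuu
miR-540-5p: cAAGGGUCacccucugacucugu
miR-540-3p: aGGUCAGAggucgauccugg
miR-665-3p: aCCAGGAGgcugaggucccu
miR-431-5p: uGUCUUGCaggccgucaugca
miR-127-5p: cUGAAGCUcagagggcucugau
miR-127-3p: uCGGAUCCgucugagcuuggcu
miR-434-5p: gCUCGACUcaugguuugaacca
miR-434-3p: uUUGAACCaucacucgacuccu
miR-136-5p: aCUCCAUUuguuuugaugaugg
miR-136-3p: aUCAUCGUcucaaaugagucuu
miR-341-3p: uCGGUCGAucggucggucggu
miR-370-3p: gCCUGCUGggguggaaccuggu

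No 2 of these 15 sequences shared a seed, the stretch that sets which mRNAs a miRNA pairs with. Over all 35 rows there were 34 seeds, and the only shared one joined miR-3070-3p with miR-3070-2-3p, products of neighbouring hairpin copies. Of the 15, miR-540-3p shared its seed with miR-6915-5p and miR-673-5p with miR-6985-3p, both outside the set. Both of those had 0 counts in all 8 libraries. Among the other rows of the set, miR-370-5p, with 5 counts, shared its seed with miR-1193-3p of the same locus, which had 108 counts. The seed of miR-882, with 0 counts, was also that of miR-3473a, with 2 counts.

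The Rtl1 antisense hairpins are shown beside their target, because position on the opposite strand of a coding gene is what sets them apart from their neighbours. The 6 hairpins of miR-431, miR-433, miR-127, miR-434, miR-432 and miR-136 all lay within the Rtl1 coding sequence on the strand opposite to it. All 11 of their mature arms had a full-length perfect complement in the 6358-base Rtl1 transcript of GENCODE M21. None of the 58797 coding transcripts searched held such a site from any gene other than Rtl1, and no arm from the Meg3 or Rian side had one in Rtl1. Of the sites, the following belong to the 3p arms with the most counts and to the 5p arm of miR-136, read 5′ to 3′ in the Rtl1 mRNA. The first 3 start at transcript positions 2642 (miR-127-3p), 965 (miR-434-3p) and 164 (miR-136-3p).
Rtl1 site of miR-127-3p: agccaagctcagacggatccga
Rtl1 site of miR-434-3p: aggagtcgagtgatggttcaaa
Rtl1 site of miR-136-3p: aagactcatttgagacgatgat
Rtl1 site of miR-136-5p: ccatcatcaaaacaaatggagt

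The miR-136 products can be compared, by the counts under each name, with a hairpin annotated on the other strand. The strand of the reads themselves was not seen. The miR-136 hairpin lies at chr12:109595327-109595388 on the plus strand, and its reverse complement is contained whole in the miR-3071 hairpin at chr12:109595318-109595397 on the minus strand, the strand of Rtl1. In both, the mature arms are in capitals.
Mir136 hairpin: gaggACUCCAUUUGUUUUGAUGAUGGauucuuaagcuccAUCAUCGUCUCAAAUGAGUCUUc
Mir3071 hairpin: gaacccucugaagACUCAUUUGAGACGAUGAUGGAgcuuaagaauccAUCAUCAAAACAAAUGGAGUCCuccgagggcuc
The counts of this pair fell on the miR-136 side: miR-136-3p had 475 counts and miR-136-5p 77 over the 8 libraries, while both arms of miR-3071 had 0. On the Meg3 side, miR-337 at chr12:109585789-109585885 likewise has a miRNA annotated on its opposite strand, miR-3544, and both rows of that miRNA had 0 counts.
Mir337 hairpin: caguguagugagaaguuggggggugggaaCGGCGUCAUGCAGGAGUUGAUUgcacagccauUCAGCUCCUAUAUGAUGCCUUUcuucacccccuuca

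The remaining hairpins sit outside Rtl1. The miR-770 hairpin lies in a Meg3 exon, 22.7 kb from the start of Meg3. The hairpins of miR-673, miR-493, miR-337, miR-540, miR-665 and both miR-3070 copies are intergenic in the annotation, between Meg3 and Rtl1. Those of miR-341, miR-1188 and miR-370 lie within Rian on its own strand, and miR-882 is intergenic, 141 kb from the start of Meg3. The miR-379 to miR-410 cluster, the larger miRNA cluster of the locus near Mirg, was used for comparison and had 77 rows.

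The libraries were shallow, with 13607 to 115492 miRNA counts each, at most 0.77% of the 15 M reads aimed for. A count of 0 allowed up to 3 counts, or 38.0 to 195 CPM. CPM here are counts per 1000000 counts, with library sizes scaled by TMM, a method that sets libraries on a common scale. All intervals given cover counting error only, on PCR reads without molecular identifiers. Of the cell type markers, the miR-322, miR-503, miR-351, miR-542 and miR-450 list held 10.7% of counts in control TSC and 6.70% in paused TSC, against 0.126% and 0.154% in ESC. Most of the TSC share was miR-322-5p, with 9315 and 1633 counts in the control libraries. Not every row of the list set the cell types apart so widely. For miR-542-3p there were 39 and 21 counts in paused ESC and 86 and 23 in control TSC. The miR-290 to miR-295 cluster of early embryonic cells held 48.6% to 65.3% in every library, so all other shares move within the remainder. The miR-302 and miR-367 rows, also markers of pluripotent and early embryonic cells, had 55 and 68 counts in the control ESC libraries, 9 and 4 in the deeper paused ones, 6 in control TSC library 1 and 0 in the other TSC libraries. The part of this lower level in the paused ESC values below was not tested.

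**Figure D1:**
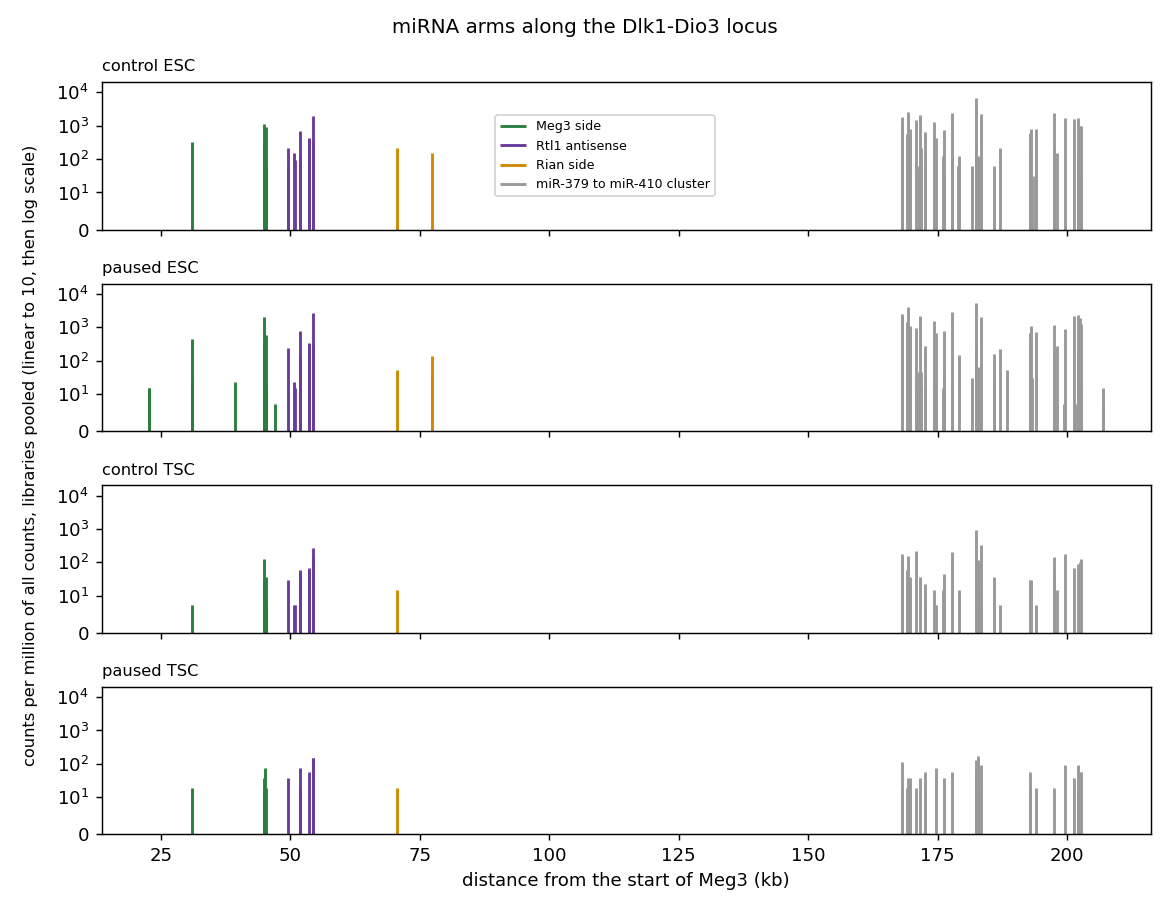
Level of the miRNA arms matched by name to RefSeq along the locus in the 4 groups, against distance from the start of Meg3 in kb. Levels are CPM before scaling with the libraries of a group pooled (linear up to 10 and logarithmic above). Some cluster arms without such a match, miR-376c-3p among them, are not drawn. In control and paused ESC the Meg3-side and Rtl1 antisense arms reach the range of the grey miR-379 to miR-410 cluster, and in both TSC groups all segments are lower.

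Between the cell types, the set took 0.795% ± 0.0300 (SD, n = 2) of all counts in control ESC and 0.878% ± 0.101 in paused ESC. It took 0.104% ± 0.0269 in control TSC and 0.0687% ± 0.00444 in paused TSC. The lowest ESC library, at 0.773%, stood above the highest TSC library, at 0.123%, so the cell types did not overlap. In a bulk sample, a smaller number of cells with these miRNAs and less miRNA per cell cannot be told apart.

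By segment, in the control state, Meg3-side rows took 0.323% ± 0.0528 of ESC counts and 0.0193% ± 0.00459 of TSC counts. Rtl1 antisense rows took 0.436% ± 0.0142 and 0.0837% ± 0.0327, and Rian-side rows 0.0355% ± 0.00858 and 0.000866% ± 0.00122. Within the set, Rtl1 antisense rows made up 50.0% to 58.5% of the counts in the 4 ESC libraries and 65.0% to 87.0% in the 4 TSC libraries. These ranges did not overlap, although the TSC libraries held only 98, 23, 17 and 20 counts on the set. The exact 95% interval of control TSC library 1, 61.4% to 80.1%, overlapped that of control ESC library 1, 49.4% to 65.8%. Of all counts on the locus, the set made up 14.8% to 15.8% in ESC libraries and 19.2% to 32.8% in TSC libraries, the remainder falling on the miR-379 to miR-410 cluster. Here too the exact 95% interval of control TSC library 1, 15.9% to 22.9%, overlapped that of control ESC library 1, 13.4% to 18.2%. The miR-379 to miR-410 cluster took 4.42% ± 0.376 of control ESC counts and 0.347% ± 0.0150 of control TSC counts. No test was made of these shares.

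**Figure D2:**
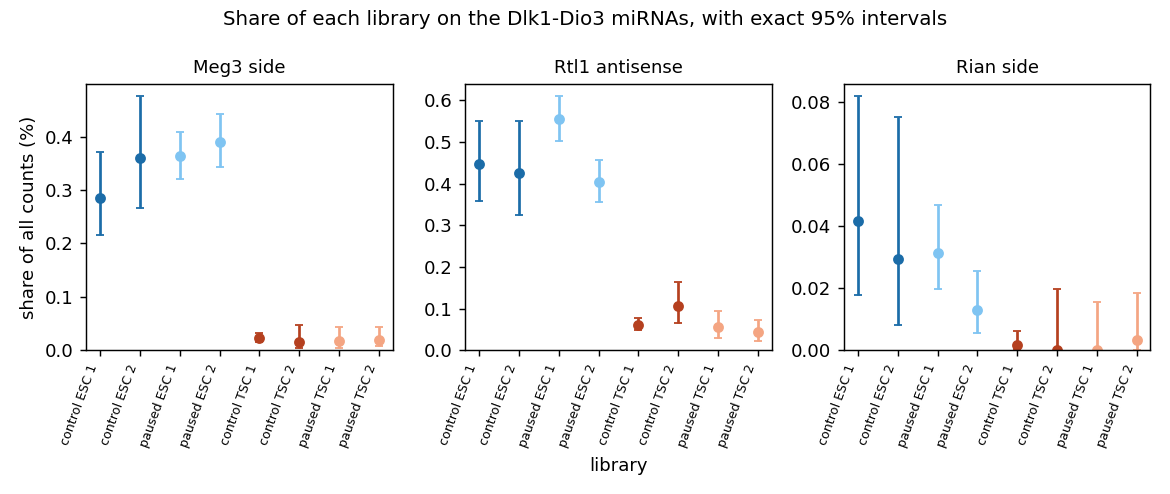
Share of all counts (%) on the Meg3-side, Rtl1 antisense and Rian-side rows in each of the 8 distinct libraries, with exact (Clopper-Pearson) 95% binomial intervals. In the Meg3-side and Rtl1 antisense panels every ESC library lies above every TSC library, and the Rian-side panel has 0 counts in TSC control library 2 and TSC paused library 1.

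Marker lists of other cell types were read beside these shares. Fibroblast and mesenchymal markers, which feeders would bring, took 0.100% to 0.122% of counts in ESC and 0.0761% to 0.106% in TSC libraries, with 16 of 30 rows holding any count. In ESC most of it was miR-143-3p, with 16 and 8 counts in control and 51 and 39 in paused libraries, and miR-145a-5p, with 6 and 3 and 26 and 15. In TSC miR-143-3p had 55 and 4 counts in control and 10 and 4 in paused libraries. There miR-145a-5p had 11 and 1 in control and 0 in both paused libraries. For miR-152-3p TSC had 34 and 9 counts in control and 4 and 19 in paused libraries. In ESC it had 0 and 1 in control and 0 in both paused libraries. From the same list miR-214-3p and miR-199b-5p had 0 counts in all 4 ESC libraries and 8 and 10 counts over the TSC libraries. Neural markers, with 6 of 17 rows counted, took 0.00735% to 0.0127% in every library. Of the arms shared by hairpin copies in these lists, miR-196a-5p and miR-129-5p had 0 counts in all 8 libraries. Others, miR-128-3p and miR-219a-5p, had counts. How reads that match several copies were treated is not given, so the fibroblast and neural shares are uncertain. Blood markers, with 5 of 13 rows counted, took 0.486% to 1.11% in ESC and at most 0.0130% in TSC, so they moved with the cell type as the locus did. The miR-142a arms led this list in control ESC, with 82 and 90 counts of miR-142a-5p and 36 and 39 of miR-142a-3p beside 54 and 22 of miR-150-5p. In paused ESC miR-150-5p led, with 380 and 279 counts beside 37 and 19 of the miR-142a arms. The miR-451a and miR-223-3p rows of the list had 0 counts in all 8 libraries. The part of these cells in the difference was not tested.

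On the Meg3 side the leading product was miR-337-3p, with 327 counts in all. Its level was 927 and 1169 CPM in the control and 1800 and 2028 in the paused ESC libraries, and 181 and 184 in the control and 0 and 30.7 in the paused TSC libraries. The 4 groups did not overlap, with paused ESC highest and paused TSC lowest. Its partner arm miR-337-5p had 232 and 390 CPM in control ESC and 304 and 408.8 in paused ESC. In TSC it had 51.8 and 0 CPM in control and 0 and 61.4 in paused libraries, from 4 and 2 counts.

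The other Meg3-side products followed the same order of cell types, with 1 exception. For miR-665-3p the values were 649 and 1104 CPM in the control and 507 and 598 in the paused ESC libraries, and 64.7 and 0 in the control and 0 and 30.7 in the paused TSC libraries. For miR-673-5p they were 278 and 325, 418 and 456, 12.9 and 0, and 42.0 and 0 in the same order. In both rows the ESC libraries stood clear of the TSC libraries. For miR-540-3p control ESC gave 371 and 65.0 CPM, paused ESC 152.1 and 157, control TSC 0 in both, and paused TSC 42.0 and 0. The exception was miR-540-5p, with 46.3 and 65.0 CPM in the control and 101 and 62.9 in the paused ESC libraries, and 12.9 and 0 in the control and 84.0 and 61.4 in the paused TSC libraries. There paused ESC and paused TSC overlapped, on 12 and 4 counts.

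On the Rtl1 antisense side miR-136-3p was the most counted of the 35 rows. It had 1482 and 2014 CPM in the control and 2953 and 2139 in the paused ESC libraries, and 427 and 122 in the control and 210 and 92.1 in the paused TSC libraries. By CPM it ranked 50 of the 399 rows with counts in control ESC, 30 of 480 in paused ESC, 161 of 498 in control TSC and 181 of 398 in paused TSC. The other arm, miR-136-5p, had 278 and 325 CPM in the control and 254 and 314 in the paused ESC libraries, and 168 and 306 in the control and 210 and 92.1 in the paused TSC libraries. Its control ESC and control TSC libraries overlapped.

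Next came miR-127-3p, an arm with a known part in Rtl1 repression. It had 649 and 585 CPM in the control and 824 and 660 in the paused ESC libraries, and 51.8 and 245 in the control and 42.0 and 92.1 in the paused TSC libraries. Every ESC library exceeded every TSC library. The 5p arm, miR-127-5p, was less counted in ESC, at 139 and 65.0 CPM in control and 165 and 110 in paused libraries, and the TSC values were 64.7 and 61.2 CPM in control and 0 and 30.7 in paused libraries.

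The 2 arms of miR-434 were about equally counted. For miR-434-3p the levels were 463 and 260 CPM in the control and 406 and 204 in the paused ESC libraries, 77.7 and 184 in the control TSC libraries, and 0 in both paused ones. For miR-434-5p they were 371 and 260, 279 and 267, 38.8 and 306, and 42.0 and 61.4. Control TSC library 2 thus reached the ESC range for miR-434-5p, on 5 counts. For miR-431-5p the levels were 278 and 65.0 CPM in the control and 279 and 157 in the paused ESC libraries, and 51.8 and 0 in the control and 42.0 and 30.7 in the paused TSC libraries.

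On the Rian side only miR-341-3p and miR-370-3p reached 10 counts, with 17 and 24. For miR-370-3p the ESC libraries held 4 and 1 (control) and 13 and 6 counts (paused), and all 4 TSC libraries held 0. For miR-341-3p there were 4 and 3 counts in the control and 6 and 1 in the paused ESC libraries, and 2 and 0 in the control and 0 and 1 in the paused TSC libraries. The paused ESC libraries were the deeper ones, so its level was 185 and 195 CPM in control ESC against 76.1 and 15.7 in paused ESC. The ratio of pooled counts, control over paused ESC, was 3.85 (exact 95% interval 1.15 to 12.9), from 7 counts in each. In the edgeR fit without a filter on low counts, described below, this change was not called (adjusted p = 0.458).

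**Figure D3:**
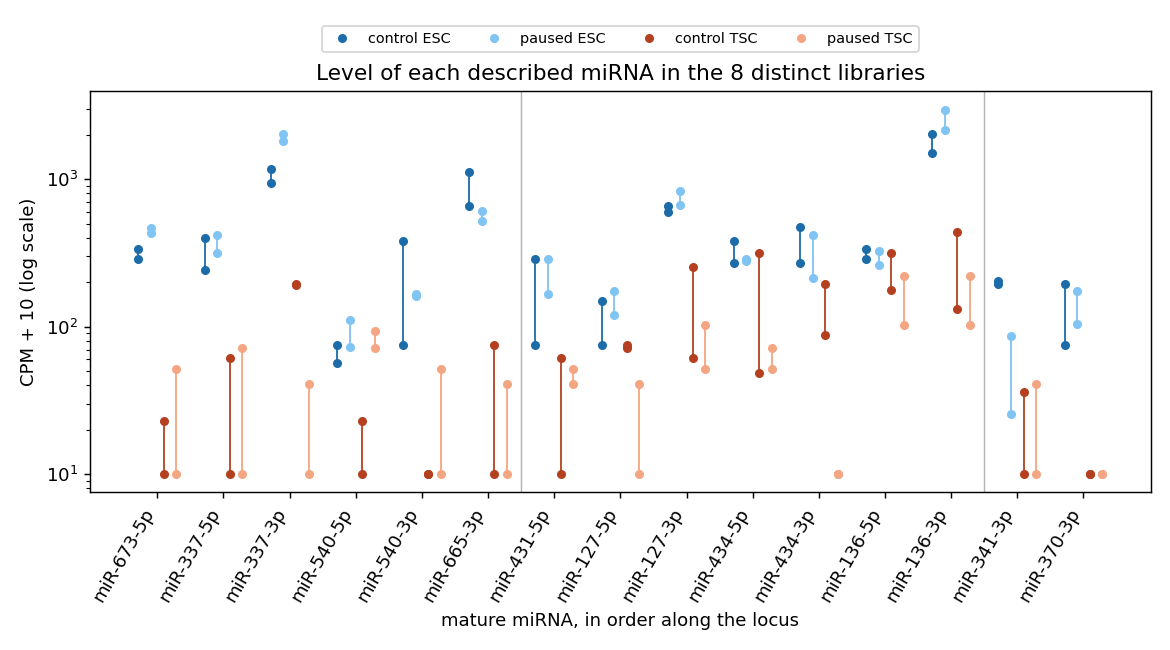
Level of the 15 rows with 10 or more counts in each library, as CPM + 10 on a log scale, with points for the 2 libraries of a group joined by a line and grey rules between the Meg3-side, Rtl1 antisense and Rian-side rows. Points at 10 are libraries with 0 counts, and the ESC points of miR-337-3p and miR-136-3p lie above all their TSC points.

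The comparison of the cell types asked which members differ between untreated ESC and TSC, and between the paused states. Only 7 of the 35 rows passed the filter on low counts, and all 7 did so through ESC libraries alone, with 0 TSC libraries at the filter level, so a difference in that direction was built into their choice. The edgeR quasi-likelihood test called all 7 higher in control ESC, and 33.5% of the 206 tested rows were called higher and 40.8% lower in that comparison. In the paused states it called all 7 higher in ESC, beside 37.4% called higher and 39.3% called lower over all tested rows. Their median log2 fold change was 2.74 in the control comparison, and over all tested rows it was -0.23. The filter favoured that gap, so it is no support for a difference. No median is given for the paused comparison, where it fell on miR-673-5p, with 1 count in paused TSC. The 26 tested rows of the miR-379 to miR-410 cluster were also called higher in ESC in both comparisons.

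For members with over 3 counts in both groups the fitted differences in the control state can be given, as log2 fold change ± SE, control ESC against control TSC. Each SE, here and below, is the size of the log2 fold change divided by the square root of the edgeR F statistic. It was worked back from the test and is an approximate error, not one reported by the model. The differences were 2.33 ± 0.47 for miR-136-3p, with an edgeR adjusted p of 2.6e-06, and 2.49 ± 0.53 for miR-337-3p (adjusted p = 8.5e-06). The fit gave 2.74 ± 0.65 for miR-127-3p (6.1e-05), 3.95 ± 0.68 for miR-665-3p (3.9e-08) and 2.75 ± 1.01 for miR-337-5p (0.0107). The smallest was miR-434-3p at 1.88 ± 0.83 (0.0332). For miR-673-5p, control TSC held 1 count, and the pooled counts were 27.8-fold higher in control ESC with an exact 95% interval of 4.05 to 1198. The call for miR-434-3p was lost without control ESC library 1 (adjusted p = 0.344), control TSC library 1 (0.305) or paused TSC library 2 (0.0518), by DESeq2 (0.105) and with the replicate number as a block (0.0590). The call for miR-127-3p was lost without control TSC library 1 (0.0622), and that for miR-337-5p without control ESC library 2 (0.0790). Control TSC library 1, the deepest, also moved sizes: without it the log2 fold change was 1.56 for miR-127-3p and 4.01 for miR-136-3p, and the lone remaining control TSC library held 0 counts of miR-665-3p, miR-337-5p and miR-673-5p.

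In the paused states 2 members had over 3 counts in paused TSC among the 7. For miR-136-3p the fitted log2 fold change was 4.12 ± 0.53 (edgeR adjusted p = 6.7e-14) and for miR-127-3p 3.34 ± 0.63 (3.1e-07). The others are given as ratios of pooled counts, paused ESC over paused TSC. The ratio was 107 (exact 95% interval 19.1 to 4251) for miR-337-3p and 30.9 (5.38 to 1235) for miR-665-3p. It was 24.5 (4.24 to 985) for miR-673-5p and 9.89 (2.60 to 83.9) for miR-337-5p. With 0 counts in paused TSC, miR-434-3p was at least 5.94-fold higher in paused ESC, taking its 0 as 3 counts over the group.

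With no filter on low counts, 25 members and 648 rows were tested. Of the 25, edgeR called 11 higher in control ESC, the 7 above with miR-341-3p, miR-370-3p, miR-434-5p and miR-540-3p, where 13.9% of all rows were called higher. It called 12 higher in paused ESC, the 7 with miR-127-5p, miR-370-3p, miR-431-5p, miR-434-5p and miR-540-3p, where 16.2% of all rows were. The miR-136-5p arm was called in neither, with adjusted p of 0.431 in the control and 0.119 in the paused comparison. Its pooled counts were 1.55-fold higher in control ESC than in control TSC (exact 95% interval 0.660 to 3.46), while those of miR-136-3p from the same hairpin were 4.55-fold higher (2.97 to 7.10).

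The arms of a hairpin are cut from the same precursor, so their ratio does not depend on scaling between libraries. The 3p arm made up 84.2%, 86.1%, 92.1% and 87.2% of miR-136 counts in the ESC libraries, in the order control 1 and 2, paused 1 and 2. It made up 71.7%, 28.6%, 50.0% and 50.0% in the TSC libraries in the same order, on 46, 7, 10 and 6 counts. Every TSC library lay below every ESC library. Pooled by group, the share was 85.1% (exact 95% interval 75.0% to 92.3%) in control ESC and 90.2% (86.9% to 92.9%) in paused ESC. It was 66.0% (51.7% to 78.5%) in control TSC and 50.0% (24.7% to 75.3%) in paused TSC. The intervals of the 2 cell types overlapped in the control state. In the paused state they did not, with 16 counts in paused TSC. Control TSC library 1, with 46 counts, had an interval of 56.5% to 84.0%, which overlapped those of both control ESC libraries. No test of this difference was made.

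The 3p arm also led at miR-337, with 83.0% of counts over all libraries, at miR-127 with 82.1%, at miR-665 with 95.8% and at miR-370 with 82.8%. For miR-341 all 17 counts were on the 3p arm. At miR-673 and miR-431 the 5p arm led, and the 3p arm had 3.85% and 4.26% of counts. The arms of miR-434 were near balance, with 52.3% on 3p (exact 95% interval 43.4% to 61.1%), and those of miR-540 had 62.7% on 3p (48.1% to 75.9%). For miR-127 the 3p share was 85.2% in control ESC and 57.1% (28.9% to 82.3%) in control TSC, on 14 counts, and 84.3% in paused ESC and 80.0% (28.4% to 99.5%) in paused TSC, on 5 counts. These intervals overlapped and no test was made.

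**Figure D4:**
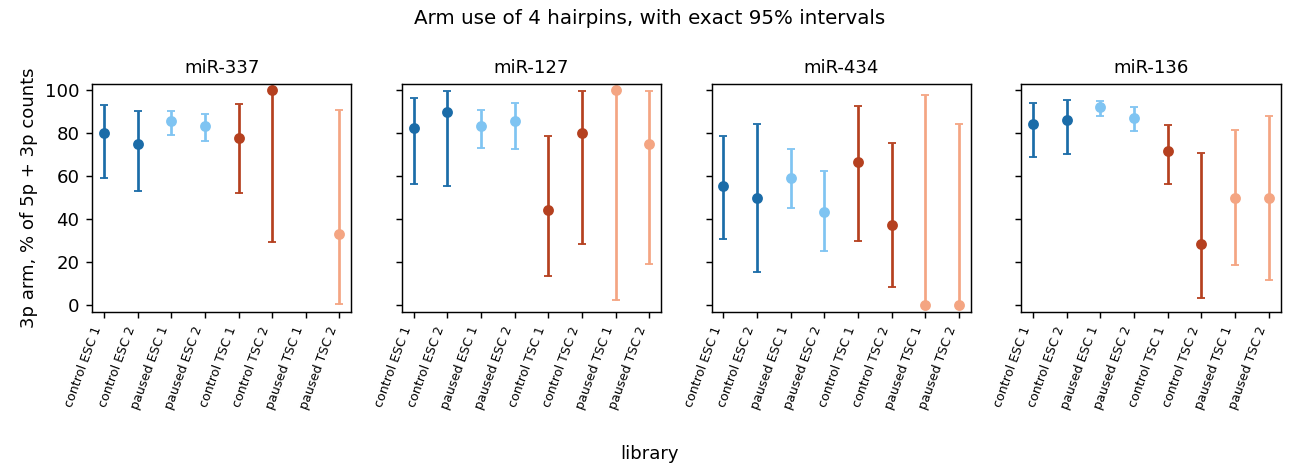
Share of the 3p arm (% of 5p and 3p counts) in each library for miR-337, miR-127, miR-434 and miR-136, with exact 95% binomial intervals. For miR-136 all 4 ESC libraries lie at 84.2% or above and all 4 TSC libraries at 71.7% or below, and TSC paused library 1 has no miR-337 counts to show.

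In ESC, no tested member of the set was called changed with pausing. Of the 7, edgeR called 0, with 1 at an unadjusted p under 0.05 and 0 called by DESeq2, while 8.25% of the 206 tested rows were called higher and 19.4% lower. Their fitted log2 fold changes, paused against control ESC, ran from -0.63 to 0.88 with a median of 0.26, and over all tested rows the median was -0.03. The largest was miR-337-3p at 0.88 ± 0.40 (SE, edgeR adjusted p = 0.0876), with both paused libraries above both control libraries. It was called under some other settings: the adjusted p was 0.0145 to 0.0412 when any 1 TSC library was left out, 0.0171 with ESC libraries alone and 0.0422 with median-of-ratios scaling.

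The other fitted changes in ESC were smaller than or near their errors. They were 0.56 ± 0.39 for miR-136-3p (adjusted p = 0.303), 0.54 ± 0.65 for miR-673-5p (0.555), 0.26 ± 0.45 for miR-127-3p (0.697) and 0.24 ± 0.68 for miR-337-5p (0.810). Both paused ESC libraries of miR-665-3p were below both control libraries, at -0.63 ± 0.45 (0.311), and miR-434-3p gave -0.27 ± 0.65 (0.787). Of the 26 tested rows of the miR-379 to miR-410 cluster, 2 were called higher and 1 lower in the same comparison. The miR-290 to miR-295 cluster held 63.4% of control ESC and 65.2% of paused ESC counts.

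In TSC, 1 of the 7 tested members, miR-337-3p, was called lower with pausing and 0 were called higher, while 17.0% of all tested rows were called lower and 1.94% higher. It had 14 and 3 counts in the control libraries and 0 and 1 in the paused libraries. The pooled counts were 10.2-fold lower in paused TSC, with an exact 95% interval of 1.61 to 428, and the edgeR adjusted p was 0.0259. That call was made in 0 of the 8 fits that left out 1 library, with adjusted p of 0.0964 to 0.405, nor was it made by DESeq2 (0.278), median-of-ratios scaling (0.0645), scaling by total count alone (0.0920) or without the filter (0.279). The median log2 fold change over all tested rows in this comparison was -0.39 with TMM and 0.08 with the total count alone. Values for the members are to be read against that shift.

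For the other members of the set, pausing in TSC could hardly be read at this depth. With 9 counts in control and 0 in paused TSC, miR-434-3p was at least 1.81-fold lower, taking its 0 as 3 counts over the group, and its adjusted p was 0.0944. The 35 control and 8 paused counts of miR-136-3p gave a log2 fold change of -1.23 ± 0.64 (edgeR adjusted p = 0.185), which turned to 0.46 without control TSC library 1. For miR-127-3p it was -0.34 ± 0.95 (0.863), which turned to 0.88 without control TSC library 2. The remaining 3 tested members, miR-337-5p, miR-665-3p and miR-673-5p, had 1 or 2 counts in paused TSC. Of the 26 tested rows of the miR-379 to miR-410 cluster 7 were called lower and 0 higher. The TSC marker list also took less of the counts in paused TSC (5.76% and 7.64%) than in control TSC (10.1% and 11.3%), and its part in these values was not tested.

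Whether pausing acted differently in the 2 cell types was tested as the difference of the pause effects, ESC minus TSC. Of the 7 members 1, miR-337-3p, was called higher and 0 lower, beside 14.6% called higher and 11.7% lower over all tested rows. Its difference was 4.04 ± 1.13 (log2, SE, edgeR adjusted p = 0.0030), a size that rests on the 1 count in paused TSC and is no bound. The call was lost by DESeq2 (0.0563), without control TSC library 1 (0.0509) and without paused TSC library 1 (0.0572). For miR-136-3p the difference was 1.79 ± 0.74 (0.0556) and for miR-127-3p 0.61 ± 1.05 (0.725). In the miR-379 to miR-410 cluster 9 of 26 tested rows were called higher and 0 lower. The comparisons share the control libraries of each cell type and are not independent of each other.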

How the data were processed

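The authors deposited 1 table of raw miRNA counts per sample, not normalized. Per the labels' protocols, small RNA was taken with a miRNeasy kit, and 10 ng went into SMARTer small RNA libraries with 12 PCR cycles, read as single 75-base reads. The build was GRCm38, per the submitters' processing notes. Trimming, aligner, counter, miRNA annotation and the treatment of multi-mapping reads were not given in the sources used here, so counts of near-identical copies are uncertain. The kit adds a poly(A) tail, and capture may differ between miRNAs.

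The members and lists were chosen with earlier results of these data known. Groups came from the sample labels. Files identical within a group were counted as 1 library. Counts were fitted with edgeR 4.0.16 (R 4.3.3) in 1 quasi-likelihood model of the 4 groups, with TMM scaling. Rows had to reach 369 CPM before scaling in at least 2 libraries, which is 10 counts at the median library size but ran from 5.03 counts in the shallowest library to 42.7 in the deepest. This left 206 rows, with 4 residual degrees of freedom and a biological coefficient of variation of 21.4%. The prior degrees of freedom were infinite, so the quasi-likelihood spread was shared fully between rows rather than taken from each row. Very small p-values therefore do not reflect a row's own spread between its 2 libraries per group. Tests were two-sided and calls needed an adjusted p (Benjamini-Hochberg, over all rows) under 0.05. DESeq2 1.42.0, other scalings, no filter, a replicate block and leaving out each library were alternatives. The model was also run on simulated counts with the same mean profile in both cell types and changes put into paused ESC alone. That run did not cover differences between untreated cell types. Rows with 10 or more counts over the distinct libraries were named, with other rows only as an arm, copy or strand partner of these or as members at 0. Pooled ratios used exact conditional intervals, shares exact Clopper-Pearson intervals at 95%. Sequences and positions came from RefSeq GRCm38.p6, and gene models from GENCODE M21.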

Additional observations from a re-analysis of the deposited data

Results flagged for a closer look

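For miR-337-3p the effect of pausing was called different between the cell types, a call that some alternatives lost. The difference of the log2 fold changes, ESC minus TSC, was 4.04 by the edgeR test of the difference itself (adjusted p = 0.0030). The level was higher in both paused ESC libraries than in both control ESC libraries, and lower in both paused TSC libraries than in both control TSC libraries. The paused TSC libraries held 0 and 1 counts, and the value depends on them. It was 1 of 7 tested members, while 14.6% of all 206 tested rows were called higher for this difference. Pausing was not called for it in ESC (edgeR adjusted p = 0.0876). In TSC it was called (0.0259), but in 0 of the 8 fits that left out 1 library. The call was lost by DESeq2 (adjusted p = 0.0563), without control TSC library 1 (0.0509) and without paused TSC library 1 (0.0572).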

How the results depend on the processing

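Depth is the main limit: of the 7 tested members 5 had 0 to 2 counts in paused TSC, and spread was estimated from 2 libraries a group. Members called with pausing in ESC numbered 0, but 1 with median-of-ratios scaling, 1 with the compared groups alone, 2 with every deposited file as a library, and 0 to 1 when 1 library was left out. With pausing in TSC the count was 1, but 0 by DESeq2, median-of-ratios scaling, total count alone or no filter, and 0 to 0 over the left-out libraries. For the difference of pause effects it was 1, but 0 by DESeq2, 2 with every deposited file as a library, and 0 to 2 over the left-out libraries. For control ESC against control TSC it was 7, but 11 without the filter and 4 with the compared groups alone (4 members tested), and 5 to 9 over the left-out libraries. For paused ESC against paused TSC it was 7, but 12 without the filter, and 7 to 8 over the left-out libraries. With the compared groups alone no member passed the filter for pausing in TSC, and the difference was not fitted.

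With a replicate block 0, 1, 1, 6 and 7 members were called in these comparisons, the lost one being miR-434-3p in control ESC against control TSC (adjusted p = 0.0590). Deviations of same-numbered libraries correlated at -0.0715 in ESC and -0.183 in TSC. At this depth counting noise could hide a pairing, so these values cannot exclude one. The main fit did not pair libraries by number.

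Outside the miR-290 to miR-295 cluster the set took 2.17% (control) and 2.52% (paused) of ESC counts and 0.214% (control) and 0.166% (paused) of TSC counts. With 1 library left out, the shares of all counts ranged from 0.773% to 0.816%, 0.806% to 0.949%, 0.0849% to 0.123% and 0.0656% to 0.0719%. The 3p share of miR-431 was 0% in libraries with 20 or more counts on the hairpin.

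Signs turned only for uncalled changes among the 27 fold changes followed. In ESC, miR-434-3p went from -0.27 to 0.00025 with TMM without the miR-290 to miR-295 cluster and ranged from -0.87 to 0.64 over the left-out libraries, and miR-665-3p from -0.65 to 0.10. In TSC, miR-127-3p was 0.19 with total count alone and ranged from -1.49 to 0.88, and miR-136-3p from -1.34 to 0.46. For the difference, miR-127-3p was -0.017 with total count alone and ranged from -0.48 to 1.85. The cause was not tested.

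Over all rows, calls higher and lower moved with scaling. They were 17 and 40 for pausing in ESC but 29 and 37 with median-of-ratios scaling, 4 and 35 for pausing in TSC but 14 and 12 with total count alone, 30 and 24 for the difference but 17 and 40 with total count alone, and 69 and 84 for control ESC against TSC but 89 and 63 with total count alone.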
